A study of Mus musculus with 21 samples.

Results

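The 38 genes described here encode the proteins that bring long-chain fatty acids into skeletal muscle and oxidize them. They were listed by symbol for their role. All 38 were found among the 40853 genes of the count table, and all 38 were among the 16129 genes that passed the filter on low counts. RNA came from the gastrocnemius (medial belly) of 21 C57BL/6NJ mice, all female, with 1 poly(A)-selected library per mouse and 7 mice per group. All mice entered the study at 10 weeks of age. The Inactive group stayed in standard cages without training. The Active group ran on the treadmill on 5 days a week for 6 weeks, and the Activity Reduction group did so for 4 weeks and then stopped for 2 weeks. Sessions reached 40 min in all, a slow warm-up followed by running at about 70% of maximal speed. Mice of every group, the Inactive group included, had taken a maximal running test 48 to 72 h before tissue collection, and all were fasted for some hours. The comparisons ask whether training, or stopping it, altered these transcripts. The model is a whole mixed muscle at rest, so acute effects of a training session were not measured.

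Long-chain fatty acids reach muscle as circulating triglyceride, which lipoprotein lipase splits at the capillary wall, and as free fatty acids that membrane transporters and fatty acid binding proteins pass inward. They are activated to acyl-CoA, carried into mitochondria by the carnitine shuttle, and shortened by repeated turns of the beta-oxidation cycle, whose electrons leave through the electron transfer flavoproteins. Endurance-trained and fasted muscle are both known for a greater use of this route, and slow oxidative fibres for carrying more of its enzymes than fast fibres.

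None of the 38 genes was called differentially expressed between any of the 3 groups, and few of all genes tested were. At an adjusted p-value under 0.05 and a log2 fold change over 0.25 in either direction, 0 of 38 passed in each comparison, where the same thresholds called 0% of all genes tested for Active against Inactive, 0.0124% for Activity Reduction against Inactive and 0% for Activity Reduction against Active (edgeR's quasi-likelihood F test, adjusted by Benjamini and Hochberg over all genes). DESeq2 on the 3 groups also called 0 of the 38 in each comparison, where it called 0.199%, 0.0802% and 0.408% of the genes it tested. At an unadjusted p-value under 0.05, edgeR gave 1 member for Active against Inactive, a higher one, where the background was 10.9% of all genes, 6.18% higher and 4.69% lower. It gave 2 members for Activity Reduction against Inactive, both lower, where the background was 7.73%, 4.19% higher and 3.54% lower. It gave 0 for Activity Reduction against Active, where the background was 13.3%, 6.89% higher and 6.44% lower. DESeq2 on the 3 groups gave 1, 2 and 1 at that threshold, where the background was 7.13%, 4.88% and 8.27% of the genes it tested, and the member it added was Pnpla2. Fitted on only the 2 groups compared, DESeq2 gave 3, 2 and 3 members, with backgrounds of 7.81%, 4.73% and 8.25%. A test of any difference among the 3 groups gave 1 of 38 at an unadjusted p-value under 0.05, with a background of 12.6%, and 0 after adjustment. In no comparison did a member's values separate the 7 mice of a group from the 7 of the other without overlap, which 0.223%, 0.112% and 0.285% of all genes did.

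The intervals say how large a difference could have been missed. For Active against Inactive, the 95% interval of the log2 fold change lay within 0.25 of 0 for 24 of 38 members, as it did for 40.8% of all genes tested. The counts were 22 for Activity Reduction against Inactive and 25 for Activity Reduction against Active, with 41.5% and 39.4% of all genes. No interval reached a log2 fold change of 1 in either direction, and 6, 6 and 7 intervals reached past 0.5. The median log2 fold change of the members was -0.029, -0.031 and -0.005 in the 3 comparisons, beside 0.005, 0.006 and -0.001 over all genes. The fitted value was above 0 for 13, 12 and 17 of the 38 members, where 51.6%, 52.2% and 49.8% of all genes were. These counts moved with the setting. With upper-quartile scaling in place of TMM, 9 members were above 0 for Activity Reduction against Active in place of 17, while the share of all genes went from 49.8% to 43.9% and their median from -0.001 to -0.019. In the 13 libraries with fewer liver transcripts described below, 26, 19 and 6 members were above 0 with medians of 0.073, 0.002 and -0.050, beside 51.6%, 49.9% and 49.1% of all genes. With the division by liver transcripts as a covariate, 19 were above 0 for Active against Inactive, beside 51.6% of all genes.

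**Figure D1:**
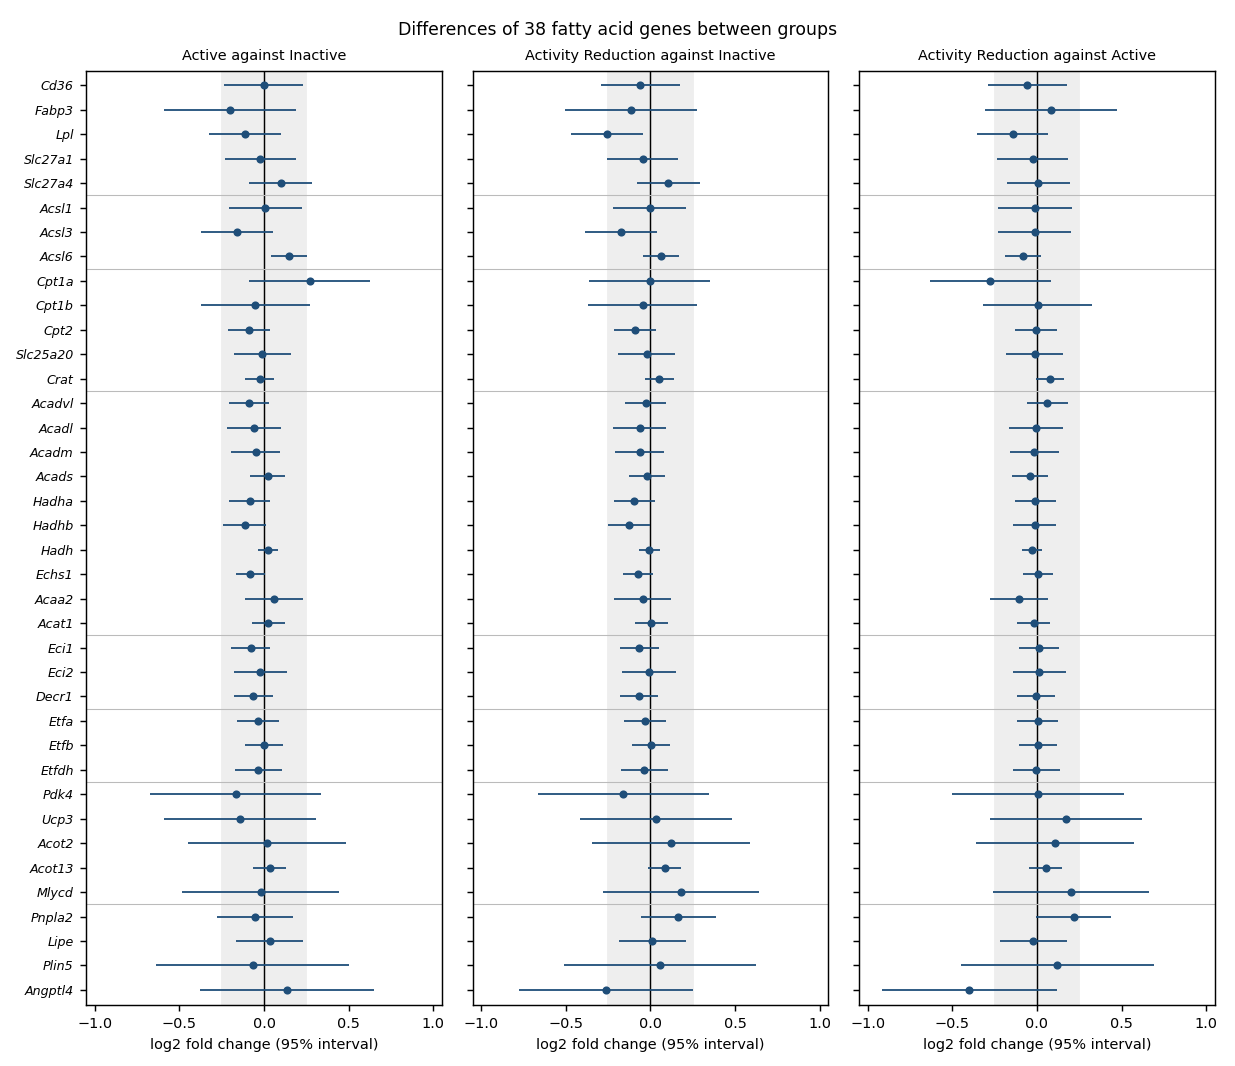
Log2 fold changes of the 38 genes in the 3 comparisons, with points for the edgeR estimate from 7 mice per group and bars for its 95% interval. Genes stand in order of role from uptake at the top to lipolysis at the bottom, separated by thin lines, and the shaded band marks 0.25 either side of 0. Most intervals cross 0 and the widest belong to Pdk4, Ucp3, Acot2, Mlycd, Plin5 and Angptl4.

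Values are given below in CPM, counts scaled to the TMM-adjusted library total, a unit that compares mice but not genes. Among the uptake genes, Lpl, which encodes lipoprotein lipase, was the member with the smallest p-value. Lpl lies on chromosome 8 of GRCm39 from 69284603 to 69360100. Its level ran from 535 to 706 CPM in the Inactive group with a median of 612, from 399 to 645 CPM in the Active group with a median of 581, and from 396 to 617 CPM in the Activity Reduction group with a median of 532. In 4 of 7 Activity Reduction mice it was below every Inactive mouse, and the groups overlapped. The log2 fold change of Activity Reduction against Inactive was -0.26 ± 0.10 (SE), with an unadjusted p-value of 0.0194 and an adjusted p-value of 0.552 (edgeR), and the exact permutation test of 7 mice against 7, two-sided, gave p = 0.0221. Without Activity Reduction replicate 2 the value was -0.20 with an unadjusted p-value of 0.0514 (edgeR).

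Fabp3, the fatty acid binding protein of heart and muscle, had the highest level per kilobase of the uptake genes and of all 38. It ran from 209 to 375 CPM in the Inactive group with a median of 277, from 146 to 378 CPM in the Active group with a median of 242, and from 174 to 365 CPM in the Activity Reduction group with a median of 243. The upper ends of the ranges nearly coincide, while 3 of 7 Active and 2 of 7 Activity Reduction mice were below every Inactive mouse. The log2 fold changes were -0.20 ± 0.19, -0.12 ± 0.19 and 0.08 ± 0.19 (SE). Zcchc17, on the opposite strand, overlaps 37% of the exonic bases of Fabp3, and the strand setting of the counting is not given in the sources used here. For the other 3 uptake genes, the fatty acid translocase Cd36 and the transport proteins Slc27a1 and Slc27a4, the smallest unadjusted p-value over the 3 comparisons was 0.249, for Slc27a4 (edgeR).

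Of the acyl-CoA synthetases, which activate fatty acids, Acsl6 was the member whose difference between the Active and Inactive groups had an unadjusted p-value under 0.05. It lies on chromosome 11 of GRCm39 from 54194352 to 54255587. Its level ran from 24.2 to 30.3 CPM in the Inactive group with a median of 26.6, from 26.6 to 33.4 CPM in the Active group with a median of 30.0, and from 27.1 to 29.9 CPM in the Activity Reduction group with a median of 27.6. In 3 of 7 Active mice it exceeded every Inactive mouse. The log2 fold change of Active against Inactive was 0.15 ± 0.05 (SE), with an unadjusted p-value of 0.00935 and an adjusted p-value of 0.333 (edgeR). The exact permutation test, two-sided, gave p = 0.028. No Activity Reduction mouse exceeded the highest Inactive mouse. Acsl1, the most abundant synthetase of the group per kilobase, ran from 240 to 350 CPM in the Inactive group with a median of 285, from 225 to 374 CPM in the Active group with a median of 278, and from 225 to 324 CPM in the Activity Reduction group with a median of 291. Its log2 fold changes were 0.008, -0.004 and -0.012, each with an SE of 0.10. Acsl3 had values of -0.16, -0.17 and -0.01, and its smallest unadjusted p-value was 0.109 (edgeR).

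In the carnitine shuttle, Crat, the acetyltransferase that exports surplus acetyl groups as carnitine esters, was both the most abundant member per kilobase and the one with the smallest p-value. Crat ran from 405 to 454 CPM in the Inactive group with a median of 429, from 387 to 453 CPM in the Active group with a median of 422, and from 399 to 480 CPM in the Activity Reduction group with a median of 441. The log2 fold change of Activity Reduction against Active was 0.08 ± 0.04 (SE), with an adjusted p-value of 0.43 (edgeR), and 2 of 7 Activity Reduction mice exceeded every Active mouse. Cpt1b and Cpt1a, the muscle and liver forms of the palmitoyltransferase that admits fatty acids to mitochondria, and Cpt2 and Slc25a20, which complete the shuttle, had no lower unadjusted p-value than the 0.125 of Cpt1a in Activity Reduction against Active with all libraries in the fit (edgeR). Cpt1a in Active against Inactive depended on Inactive replicate 1, where it was at 22.6 CPM. Without that library its log2 fold change went from 0.27 to 0.47, with an unadjusted p-value of 0.00174 and an adjusted p-value of 0.0663 (edgeR). That library is the only Inactive one among those with more liver transcripts described below, so this value cannot be told apart from that division.

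The count of Cpt1b cannot be read as its level. Cpt1b was counted at only 1.198 to 2.597 CPM over the 21 libraries, while Cpt2 was at 47.1 to 63.8 CPM. The read-through gene Gm44502 runs on the same strand through 68.5% of the exonic bases of Cpt1b and was counted at 0 in all 21 libraries. A read in the shared exons belongs to both annotations, and how the counting treated such reads is not given in the sources used here.

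In the beta-oxidation cycle, the genes of the mitochondrial trifunctional protein stood side by side. Hadha and Hadhb encode its alpha and beta subunits, which catalyse the last steps of each turn for long chains, and they lie head to head on chromosome 5 of GRCm39, Hadha on the minus strand from 30323302 to 30360187 and Hadhb on the plus strand from 30359204 to 30389997. Hadhb ran from 274 to 342 CPM in the Inactive group with a median of 291, from 227 to 298 CPM in the Active group with a median of 274, and from 247 to 310 CPM in the Activity Reduction group with a median of 268. In 4 of 7 Activity Reduction mice it was below every Inactive mouse, and the groups overlapped. Hadhb was also below every Inactive mouse in 4 of 7 Active mice. Its log2 fold change of Active against Inactive was -0.11 ± 0.06 (SE), with an unadjusted p-value of 0.0741 (edgeR). Between Activity Reduction and Active it was only -0.01 ± 0.06 (SE). The log2 fold change of Activity Reduction against Inactive was -0.13 ± 0.06 (SE), with an unadjusted p-value of 0.0471, an adjusted p-value of 0.644 (edgeR) and p = 0.0513 in the exact permutation test, two-sided. Lpl and Hadhb were the 2 members at an unadjusted p-value under 0.05 in that comparison, and 3.54% of all genes were lower at that threshold. The unadjusted p-value of Hadhb in that comparison was above 0.05 without any of Inactive replicates 1, 2 and 4 or Activity Reduction replicates 2, 3, 4 and 6 (edgeR). Its values were -0.16 to -0.10 over the 14 Inactive and Activity Reduction libraries left out in turn. It was also above 0.05 without Active replicate 1 or 7, since all groups share the fit.

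Acadvl, which encodes the very long-chain acyl-CoA dehydrogenase and is the most abundant of the cycle genes per kilobase, ran from 349 to 435 CPM in the Inactive group with a median of 367, from 305.2 to 404 CPM in the Active group with a median of 344, and from 352 to 387 CPM in the Activity Reduction group with a median of 377. Its log2 fold changes were -0.09, -0.03 and 0.06, each with an SE of 0.06. Dvl2, on the opposite strand, overlaps 38.2% of the exonic bases of Acadvl. The other dehydrogenases Acadl, Acadm and Acads, the hydroxyacyl-CoA dehydrogenase Hadh, the hydratase Echs1 and the thiolases Acaa2 and Acat1 had no lower unadjusted p-value than the 0.0701 of Echs1 in Active against Inactive (edgeR). Hadh varied least of all 38 genes, between 129 and 148 CPM over the 21 libraries, a 1.15-fold range.

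The auxiliary enzymes for unsaturated fatty acids and the electron transfer flavoproteins had values close to 0. Eci1, an enoyl-CoA isomerase, was the most abundant auxiliary gene per kilobase. It ran from 78.2 to 98.7 CPM in the Inactive group with a median of 87.1, from 72.4 to 90.6 CPM in the Active group with a median of 79.4, and from 76.2 to 88.1 CPM in the Activity Reduction group with a median of 83.0. Its smallest unadjusted p-value was 0.177, for a log2 fold change of -0.08 ± 0.06 (SE) in Active against Inactive (edgeR). Eci2 and Decr1, the other auxiliary genes, had no lower unadjusted p-value than the 0.221 of Decr1 (edgeR).

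Etfa and Etfb encode the subunits of the flavoprotein that takes electrons from the acyl-CoA dehydrogenases, and Etfdh the enzyme that passes them to ubiquinone. Etfb ran from 143 to 167 CPM in the Inactive group with a median of 148, from 134 to 165 CPM in the Active group with a median of 153, and from 135 to 167 CPM in the Activity Reduction group with a median of 154. Etfa ran from 211 to 246 CPM in the Inactive group with a median of 228, from 188 to 248 CPM in the Active group with a median of 229, and from 196 to 248 CPM in the Activity Reduction group with a median of 218. The log2 fold changes of Etfa, Etfb and Etfdh lay between -0.04 and 0.01 in the 3 comparisons, and their 95% intervals reached no further than -0.18 and 0.14.

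Several genes of fuel selection and mitochondrial control were among those whose levels differed most between mice. Pdk4, a kinase that shuts off pyruvate dehydrogenase and so favours fatty acids over glucose, lies on chromosome 6 of GRCm39 from 5483097 to 5496339. It ran from 374 to 754 CPM in the Inactive group with a median of 525, from 243 to 703 CPM in the Active group with a median of 510, and from 208 to 743 CPM in the Activity Reduction group with a median of 501. The groups shared most of this range, and the log2 fold changes were -0.17, -0.16 and 0.01, each with an SE of 0.24. Acot13, a mitochondrial thioesterase, had the smallest p-value of this role. It ran from 38.8 to 45.7 CPM in the Inactive group with a median of 43.7, from 39.1 to 48.1 CPM in the Active group with a median of 43.2, and from 42.0 to 49.5 CPM in the Activity Reduction group with a median of 45.1. The log2 fold change of Activity Reduction against Inactive was 0.09 ± 0.05 (SE), with an adjusted p-value of 0.715 (edgeR), and BC005537, on the opposite strand, overlaps 54.4% of its exonic bases. Ucp3, the uncoupling protein of muscle, the thioesterase Acot2, which shares long stretches with Acot1, and the malonyl-CoA decarboxylase Mlycd had log2 fold changes from -0.14 to 0.20 with an SE of 0.22 to 0.23.

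Among the lipolysis genes, Pnpla2, which encodes adipose triglyceride lipase, came nearest to the threshold in the comparison of Activity Reduction with Active. It ran from 122 to 177 CPM in the Inactive group with a median of 153, from 116 to 172 CPM in the Active group with a median of 156, and from 129 to 215 CPM in the Activity Reduction group with a median of 179. In 4 of 7 Activity Reduction mice it exceeded every Active mouse. The log2 fold change was 0.22 ± 0.11 (SE), with an unadjusted p-value of 0.0547 and an adjusted p-value of 0.386 (edgeR). Plin5, which coats lipid droplets beside mitochondria, had log2 fold changes of -0.07, 0.05 and 0.12 with an SE of 0.27. The hormone-sensitive lipase gene Lipe had values of 0.03, 0.01 and -0.02 with an SE of 0.10, and Angptl4, an inhibitor of lipoprotein lipase, had values of 0.14, -0.26 and -0.40 with an SE of 0.25.

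**Figure D2:**
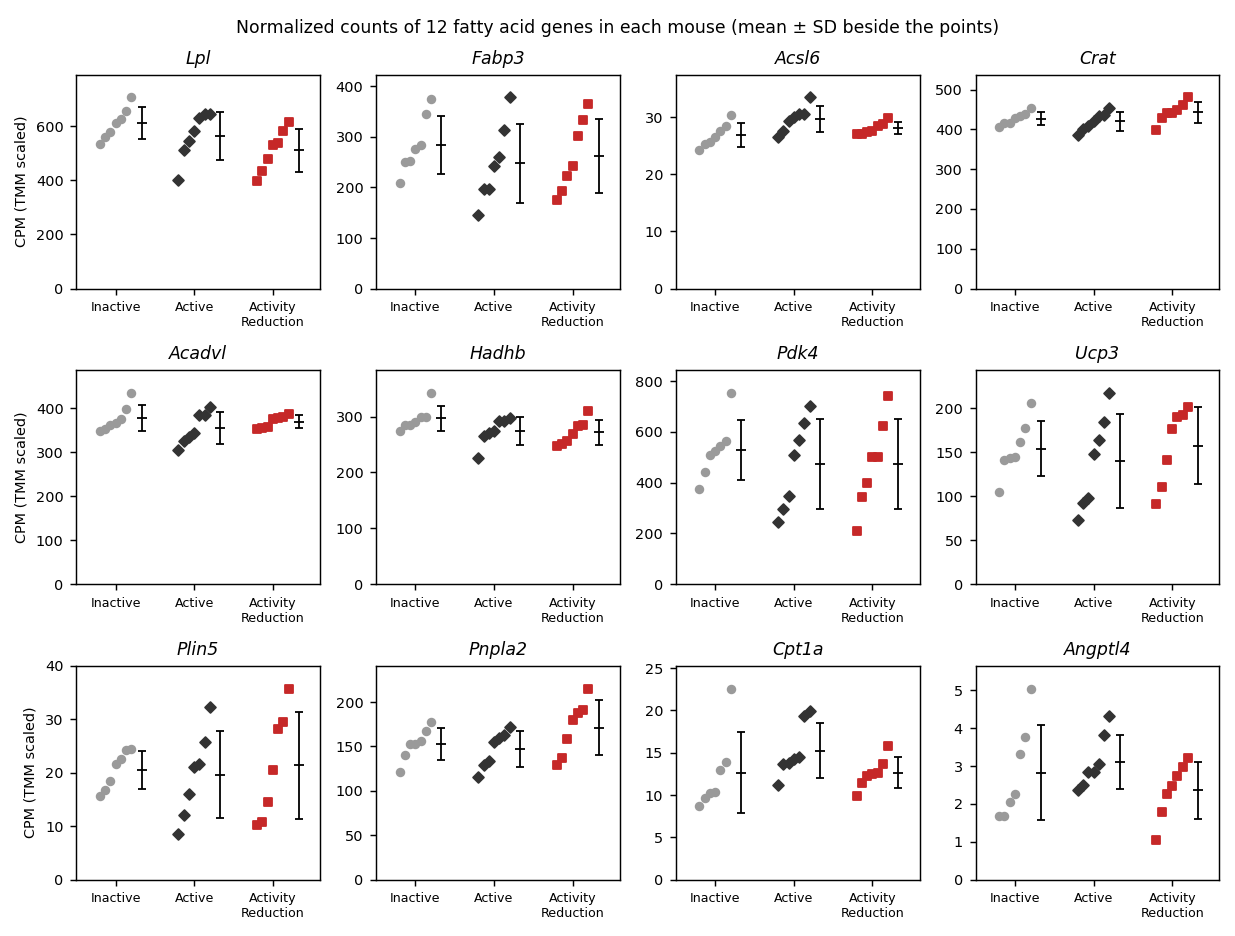
Levels of 12 of the genes in each mouse, in CPM from 0, by group, with the mean and SD of 7 mice beside the points. Points are sorted by level within a group and have no other order. Within-group ranges are wide for Pdk4, Ucp3, Plin5, Fabp3 and Angptl4 and narrow for Crat and Acadvl, and the groups overlap in every panel.

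The levels themselves spanned a wide range. Per kilobase of the canonical transcript, Fabp3 stood at 346 ± 69.7 CPM per kilobase in the Inactive group (SD, n = 7). Acadvl at 171 ± 13.6, Etfb at 168 ± 8.98 and Acadm at 167 ± 14.9 followed, and these 3 neighbours did not differ beyond their spread. Lpl at 148 ± 14.2, Hadhb at 146 ± 10.8 and Pdk4 at 141 ± 31.5 also lay within their spread of each other. The lowest were Cpt1a at 1.92 ± 0.721, Slc27a4 at 1.62 ± 0.159, Angptl4 at 0.856 ± 0.382 and Cpt1b, with the limit given above, at 0.663 ± 0.113. The lipase pair differed as well, with Pnpla2 at 74.0 ± 8.71 and Lipe at 3.93 ± 0.627 CPM per kilobase. Genes whose exons are shared with other genes carry that uncertainty into their level.

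**Figure D3:**
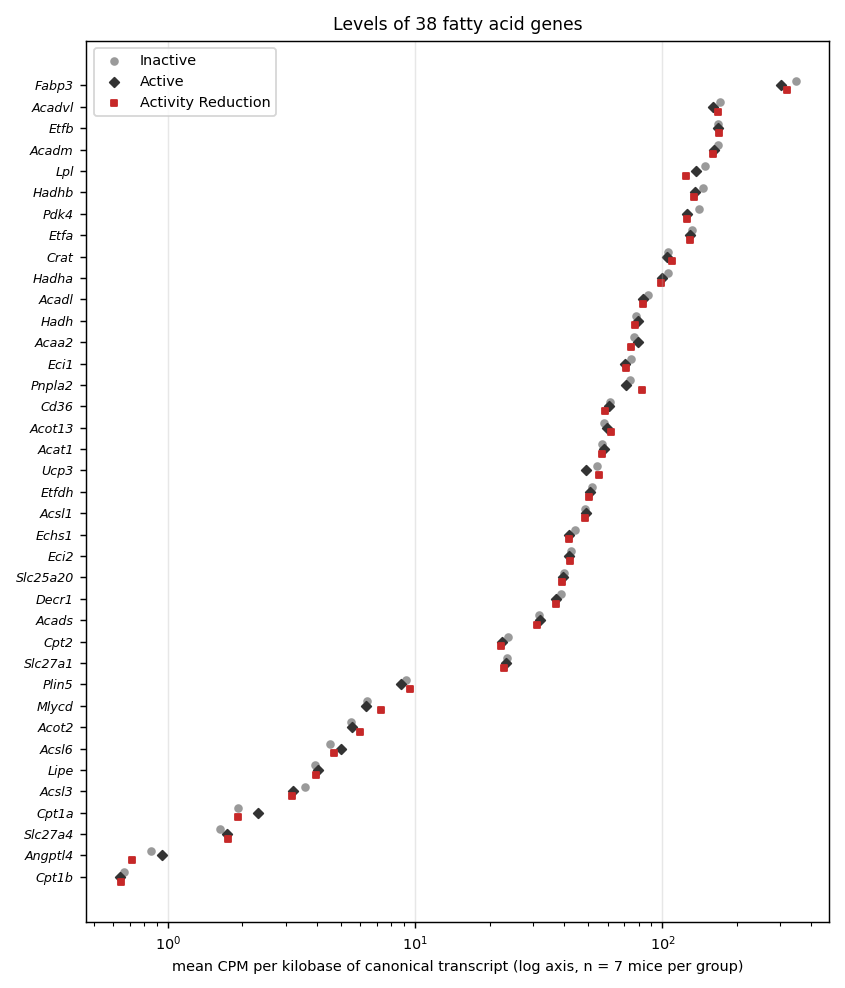
Mean level of each of the 38 genes in CPM per kilobase of canonical transcript, on a log axis, for the 3 groups of 7 mice. The genes are ordered by the Inactive mean, from Fabp3 at 346 to Cpt1b at 0.663, and the group means of a gene lie close together beside the distance between genes.

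For several genes the levels differed widely between mice of the same group. The SD of log2 CPM within groups was 0.59 for Plin5, 0.52 for Pdk4, 0.50 for Angptl4, 0.48 for Mlycd and 0.46 for Acot2 and Ucp3. Plin5 ran from 8.49 to 35.8 CPM over the 21 libraries, a 4.21-fold range, and Pdk4 from 208 to 754 CPM, a 3.62-fold range. The median SD of the 38 members was 0.16, beside 0.13 for the 10833 genes tested in the same range of mean level. Hadh, at 0.05, was the member with the smallest SD. These members were picked out for their spread after the values were seen.

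The members also varied together from mouse to mouse. After group means were subtracted from log2 CPM, the median correlation over the 703 pairs of members was 0.50 across 21 libraries, 88.9% of pairs were positive, and 50.5% were over 0.5. Over all pairs of genes tested the median was -0.002, with 49.7% positive and 2.31% over 0.5. All values of a library share its scaling, its fibre composition and its depth, and the pairs are not independent. Etfa, Acadm, Fabp3, Slc25a20, Etfdh and Hadha followed the rest most closely, with median correlations between 0.75 and 0.79. Acsl6 ran the other way, with a median correlation of -0.54 with the other members, and was highest in Active replicate 3, the library in which 17 of the 38 members were at their lowest. Acsl3 at -0.06, Slc27a4 at 0.01 and Lipe at 0.16 followed the rest little.

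Of 6 pairs compared by role, Hadha and Hadhb were the most closely related. Pearson's r of log2 CPM over 21 mice was 0.932 and Spearman's rho 0.914 (permutation test within groups, two-sided, 100000 resamples, adjusted p = 2e-05 and 3e-05 over the 6 pairs, from raw values of 1e-05, the smallest the resamples could give). Without the 2 mice farthest from the median of Hadha, r was 0.862. Within the 8 libraries with more liver transcripts described below r was 0.928, and within the other 13 it was 0.944. Opposite-strand exons of Hadha and Hadhb overlap in part, and Garem2 overlaps 21.3% of the exonic bases of Hadha. Pairs of other roles were as close. After group means were subtracted, r was 0.936 for Fabp3 with Acadm, 0.935 for Acsl1 with Acot2 and 0.924 for Acadvl with Hadha. For Hadha with Hadhb it was 0.923. The p-values of the 6 pairs test against no correlation, not against the median of 0.50 over all pairs of members.

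Pdk4 and Ucp3, on different chromosomes, were related with r = 0.886 and rho = 0.884 (the same permutation test, adjusted p = 2e-05 and 3e-05). Without the 2 mice farthest from the median of Pdk4, r was 0.874, and it was 0.829 within the 8 libraries and 0.908 within the 13. Cd36 and Lpl had r = 0.821 (permutation test, adjusted p = 2e-05) and rho = 0.701 (adjusted p = 0.0005), and r = 0.666 without the 2 farthest mice. Within the 8 and the 13 libraries r was 0.955 (permutation test, adjusted p = 0.026) and 0.643 (0.0071), while rho was 0.81 (0.051) and 0.516 (0.052).

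The other 3 pairs were weaker. Pdk4 with Acot2 had r = 0.545 (permutation test, adjusted p = 0.03) and rho = 0.586 (adjusted p = 0.015), and r = 0.634 without the 2 farthest mice, but within the 8 libraries with more liver transcripts r was 0.454 with an adjusted p of 0.28. Etfa with Etfb had r = 0.502 (permutation test, adjusted p = 0.048) and rho = 0.445 (adjusted p = 0.072). It had r = 0.358 (adjusted p = 0.18) without the 2 farthest mice, so that at a threshold of 0.05 the relation rests on those mice, and r was 0.462 within the 8 libraries and 0.541 within the 13, with adjusted p-values of 0.28 and 0.11. Pdk4 with Angptl4 had r = 0.315 (permutation test, adjusted p = 0.12) and rho = 0.386 (adjusted p = 0.061) over all mice, and r = 0.886 (adjusted p = 0.026) within the 8 and 0.571 (0.083) within the 13 libraries.

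**Figure D4:**
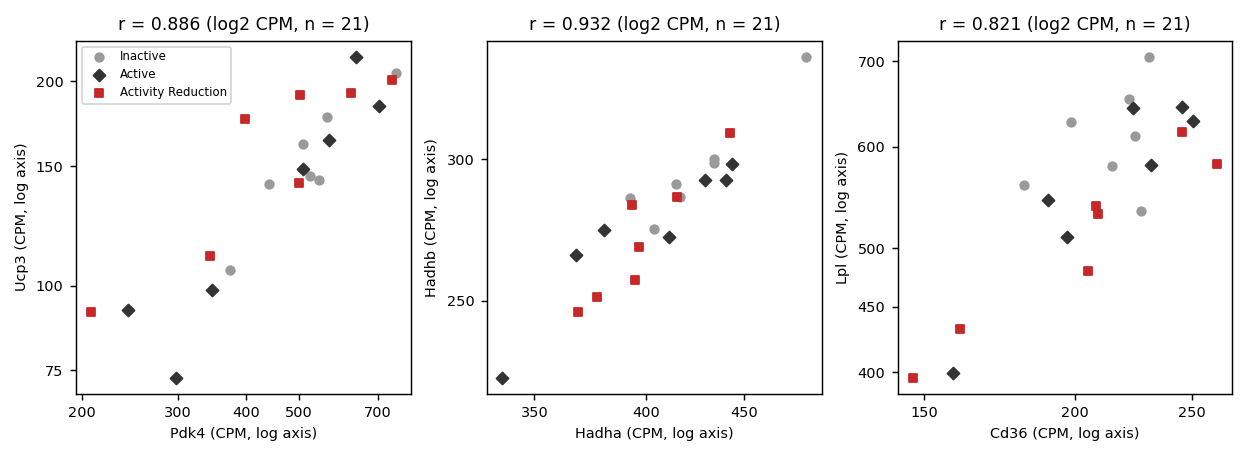
Levels of 3 pairs of genes in each of 21 mice, in CPM on log axes, with 1 point per mouse and a symbol per group. Pdk4 with Ucp3 (r = 0.886), Hadha with Hadhb (r = 0.932) and Cd36 with Lpl (r = 0.821) each lie along a line on which the 3 groups mix.

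The promoters of Hadha, Hadhb, Pdk4 and Ucp3 are shown as a description. A part of these sequences in the correlations was not tested. They are from RefSeq on GRCm38.p6, from 250 bases before to 50 after the start of the gene, and their coordinates belong to that build only. The starts of Hadha and Hadhb lie 273 bases apart on opposite strands, so that the windows share 228 bases read in opposite directions. Capitals mark the letters of the motifs searched on both strands, which are the GC box GGGCGG in Hadha and Hadhb, the CCAAT box CCAAT in Pdk4 and the nuclear receptor motif AGGTCA in Ucp3.
Hadha, chr5:30154931-30155230, minus strand: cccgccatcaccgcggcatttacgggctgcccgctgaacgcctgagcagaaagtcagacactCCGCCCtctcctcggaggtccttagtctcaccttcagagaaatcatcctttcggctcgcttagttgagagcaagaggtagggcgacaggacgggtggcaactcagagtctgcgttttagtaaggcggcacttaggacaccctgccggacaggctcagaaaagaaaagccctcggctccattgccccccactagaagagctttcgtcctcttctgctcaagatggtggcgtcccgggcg
Hadhb, chr5:30155003-30155302, plus strand: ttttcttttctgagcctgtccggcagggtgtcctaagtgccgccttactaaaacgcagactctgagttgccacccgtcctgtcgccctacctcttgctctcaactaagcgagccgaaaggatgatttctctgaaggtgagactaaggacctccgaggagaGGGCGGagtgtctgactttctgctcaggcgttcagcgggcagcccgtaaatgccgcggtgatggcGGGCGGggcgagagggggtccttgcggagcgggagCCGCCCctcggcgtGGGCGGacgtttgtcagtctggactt
Pdk4, chr6:5496229-5496528, minus strand: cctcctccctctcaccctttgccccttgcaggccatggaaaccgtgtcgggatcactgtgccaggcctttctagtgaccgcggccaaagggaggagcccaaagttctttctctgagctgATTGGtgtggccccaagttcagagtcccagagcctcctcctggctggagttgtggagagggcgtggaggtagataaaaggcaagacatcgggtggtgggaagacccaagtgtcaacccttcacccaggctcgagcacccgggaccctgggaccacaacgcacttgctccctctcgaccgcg
Ucp3, chr7:100472741-100473040, plus strand: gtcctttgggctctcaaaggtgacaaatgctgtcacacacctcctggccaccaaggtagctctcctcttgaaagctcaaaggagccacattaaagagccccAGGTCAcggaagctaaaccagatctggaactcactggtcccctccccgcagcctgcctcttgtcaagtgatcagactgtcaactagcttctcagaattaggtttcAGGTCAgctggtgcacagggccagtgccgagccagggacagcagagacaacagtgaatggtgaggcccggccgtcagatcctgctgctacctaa

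Promoters were matched for 30 of the 38 members, with 37 windows in all. GGGCGG was in 26 of the 37 windows and in 35.7% of the 32851 windows of the table. CCAAT was in 17 of 37 and in 37.4% of all, and AGGTCA in 9 of 37 and in 16.3% of all. The TATA box TATAAA was in 0 of 37 and in 13.6% of all. The longer motif TNAAGGTCA, which contains AGGTCA, was in 1 of 37, a window of Acsl6, and in 1.28% of all. The direct repeat AGGTCANAGGTCA was in 0 of 37 and in 0.0396% of all. Such letters are a description of the window and show no binding.

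Some libraries were low or high for most members. In Active replicate 3 the median member was 0.26 log2 units below its mean over all libraries, and 27 of the 38 members were among their 3 lowest values. In Activity Reduction replicate 4 the median deviation was -0.18, with 25 members among their 3 lowest. At the other end, Inactive replicate 4 stood at 0.14 and held the highest value of 9 members, and Active replicate 4 at 0.14 held the highest of 7. The Inactive libraries ran from -0.05 to 0.14, the Active from -0.26 to 0.14 and the Activity Reduction from -0.18 to 0.12.

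Slow fibre markers were also low in some of these libraries. Of 9 such genes, 0 were higher and 5 lower at an unadjusted p-value under 0.05 in Activity Reduction against Inactive (edgeR). The shares of all genes were 4.19% higher and 3.54% lower. The 9 markers had a median log2 fold change of -0.59, and 0 were called. Their summed level ran from 2158 to 2814 CPM in the Inactive group, from 1121 to 2667 CPM in the Active group and from 765 to 2363 CPM in the Activity Reduction group. Atp2a2, the calcium pump of slow fibres, had a log2 fold change of -0.70 ± 0.21 (SE), with an adjusted p-value of 0.368, and Myh7, the slow myosin heavy chain, -0.74 ± 0.28 (SE), with an adjusted p-value of 0.506 (edgeR). Myh7 was lowest in Activity Reduction replicates 4 and 1, at 95.7 and 173 CPM, and in Active replicate 3, at 195 CPM. Most members moved with the mean level of these markers. After group means were subtracted, the correlation over the libraries ran from -0.16 for Acot13 to 0.65 for Acads. It was 0.60 for Lpl and 0.54 for Hadhb. Values were below 0 for Acot13, Slc27a4, Cpt1a, Acsl3, Hadh and Acsl6 and above 0 for every other member. The median deviation of the members in Activity Reduction replicate 1 was 0.00, so that low slow fibre markers did not come with low members in every library. Fewer cells of a type and less RNA per cell cannot be told apart in whole muscle.

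With the slow fibre level as a covariate, Lpl in Activity Reduction against Inactive went from -0.26 to -0.09, with an unadjusted p-value of 0.368, and Hadhb from -0.13 to -0.04, with an unadjusted p-value of 0.507 (edgeR). The 2 members at an unadjusted p-value under 0.05 were then Pnpla2 at 0.32 and Crat at 0.11, both higher, in place of Lpl and Hadhb, both lower, and their adjusted p-values were 0.566 and 0.569 (edgeR). The same 2 genes were at 0.33 and 0.12 in Activity Reduction against Active, with adjusted p-values of 0.189 and 0.202 (edgeR). The number of members above 0 went from 12 to 25 of 38 in Activity Reduction against Inactive, where 50.8% of all genes were above 0 with the covariate. It went from 17 to 30 in Activity Reduction against Active, beside 50.6%, and the medians were 0.06 and 0.04. The markers that make up the covariate were themselves lower in the Activity Reduction group, so this fit cannot separate the covariate from the group. Without the 3 libraries lowest in these markers, which was tried only once the values had been seen, 20, 20 and 16 members were above 0 and 0 were called. The shares of all genes above 0 were 51.8%, 51.3% and 49.6%.

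**Figure D5:**
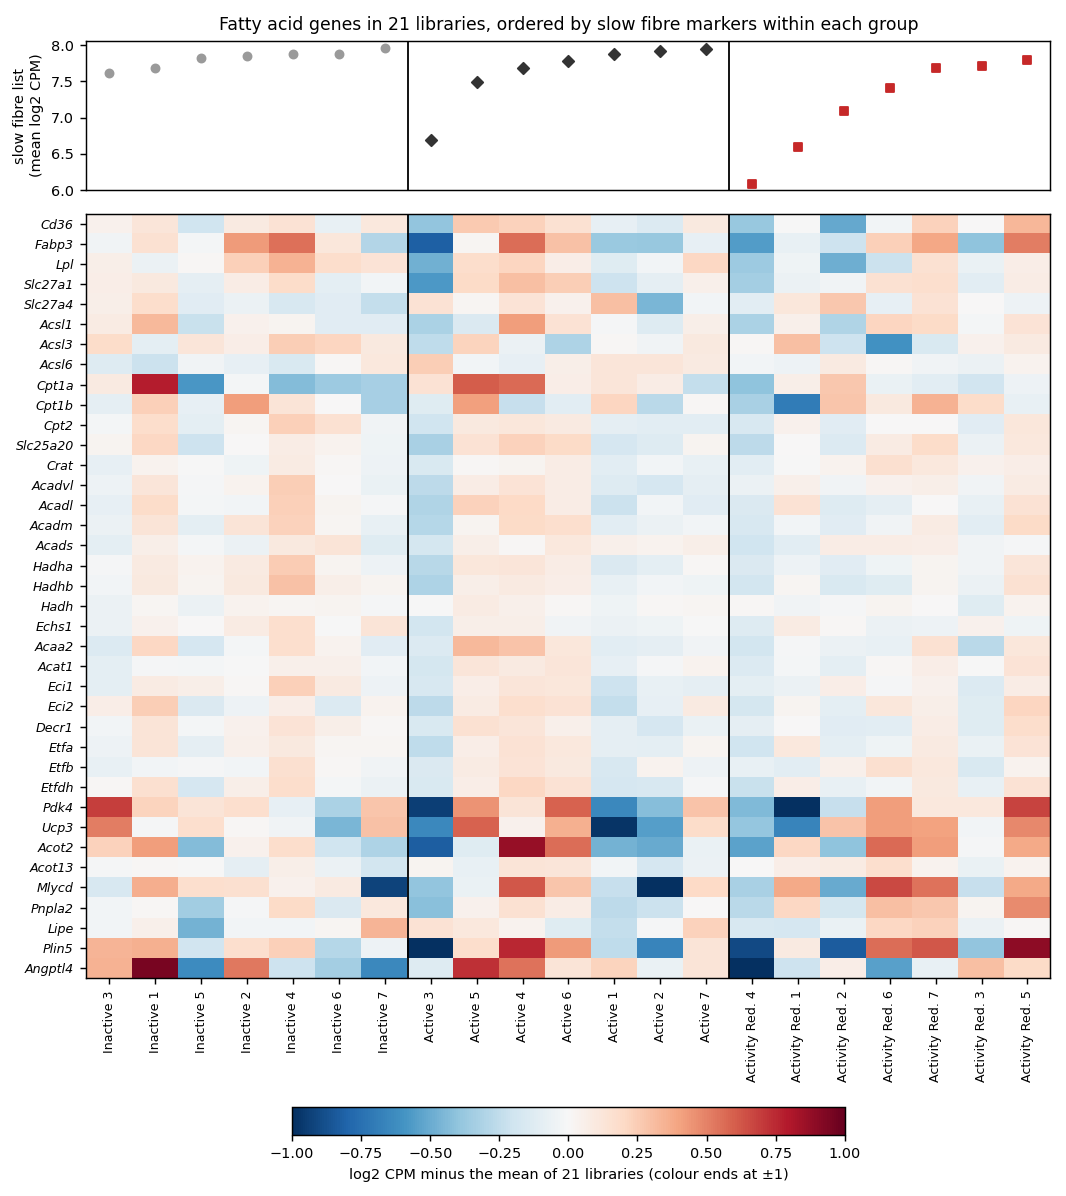
The 38 genes in 21 libraries as log2 CPM minus the mean of all libraries, with the mean log2 CPM of 9 slow fibre markers above. Libraries are ordered by that marker level within each group. Active replicate 3 and Activity Reduction replicate 4 stand out as low columns, and Acsl6 is at its highest in Active replicate 3.

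Transcripts typical of hepatocytes divided the libraries into 8 with more and 13 with fewer. The 8 were Active replicates 1 to 5, Activity Reduction replicates 1 and 2, and Inactive replicate 1. They are also the first 8 libraries in the order of the deposited samples, and the 13 are all that follow. The division cannot be told apart from that order. The groups are spread unevenly over it, so the values of these markers between groups cannot be told apart from it either. Cpt1a moved with them, at 13.6 to 22.6 CPM with a median of 15.2 in the 8 libraries and 8.73 to 13.95 CPM with a median of 11.4 in the other 13, so the ranges overlapped. Its correlation with the hepatocyte level, after group means were subtracted, was 0.72 across 21 libraries, the highest of the members. Slc27a4 followed at 0.54, and the lowest were Pdk4 at -0.48, Lpl at -0.395 and Ucp3 at -0.34. Pdk4 had a median of 372 CPM in the 8 libraries and 525 CPM in the 13, with overlapping ranges. Of the 24 hepatocyte markers, all 24 had values above 0 in Active against Inactive, with a median log2 fold change of 1.22, and 0 were in Activity Reduction against Active, with a median of -0.92. In the first, 4 of 24 were higher at an unadjusted p-value under 0.05, where 6.18% of all genes were (edgeR). Fabp1 with a log2 fold change of 1.37 and Hpx with 1.40 were among them. The summed level of the 24 markers ran from 224 to 2267 CPM in the Inactive group and from 215 to 2004 CPM in the Active group. The part of these transcripts in the level of Cpt1a was not tested. Within the 13 libraries with fewer, which hold 6 Inactive, 2 Active and 5 Activity Reduction mice, Lpl in Activity Reduction against Inactive was -0.24 with an unadjusted p-value of 0.00979, Hadhb -0.12 with 0.0772, and Acsl6 in Active against Inactive 0.12 with 0.091 (edgeR). The 8 libraries hold 5 Active mice, 2 Activity Reduction mice and 1 Inactive mouse, and a fit within them, which was added once the values had been seen, assumes that the single mouse varies like the others. In Activity Reduction against Active, 17 of 38 members were above 0 there, beside 49.6% of all genes, with a median of -0.008. Against the 1 Inactive mouse only log2 fold changes are given (edgeR). They were -0.18 for Lpl and -0.14 for Hadhb in Activity Reduction, and 0.30 for Acsl6 in Active. Cpt1a was at -0.45 in Active and -0.60 in Activity Reduction, and Angptl4 at -0.64 and -1.0. With all libraries, Cpt1a was at 0.27 and Angptl4 at 0.14 in Active against Inactive, the opposite sign. Against that mouse 6 of 38 members were above 0 in Active and 8 in Activity Reduction, beside 53.2% and 52.3% of all genes.

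Other cell types could add fatty acid genes to whole muscle. Of 8 adipocyte markers 0 had an unadjusted p-value under 0.05 in any comparison, but most had values of the same sign. In Activity Reduction against Inactive, where Lpl was lower, 0 of 8 were above 0 with a median log2 fold change of -0.24. In Activity Reduction against Active 1 of 8 was above 0 with a median of -0.42, and in Active against Inactive 5 of 8 with a median of 0.11. Their summed level ran from 2872 to 3661 CPM in the Inactive group, from 2516 to 3485 CPM in the Active group and from 2685 to 3836 CPM in the Activity Reduction group. The smallest p-values were those of Adrb3 and Lep, with adjusted p-values of 0.435 and 0.451 in Activity Reduction against Active (edgeR). The brown fat marker Ucp1 was at 0 in every Inactive and Active library and at most 0.0399 CPM in the others, and Cidea was at 0.359 to 0.707 CPM in the Inactive, 0.333 to 0.751 CPM in the Active and 0.110 to 0.591 CPM in the Activity Reduction group. Cidea had a log2 fold change of -0.69 ± 0.30 (SE) in Activity Reduction against Active, with an unadjusted p-value of 0.0328, and -0.61 ± 0.30 (SE) against Inactive, with 0.0526 (edgeR). Endothelial markers are of cells that also use Lpl and Cd36. At an unadjusted p-value under 0.05, 4 of 12 were higher in Active against Inactive and 3 of 12 lower in Activity Reduction against Active (edgeR). Of all genes tested, 6.18% were higher in the first and 6.44% lower in the second. Of the 12 markers, 9 were above 0 in the first with a median of 0.058, and 3 in the second with a median of -0.084. Kdr was at 0.29 and -0.42 and Pecam1 at 0.14 and -0.17. Macrophage markers were higher for 3 of 9 and lower for 3 of 9 in the same comparisons, with Csf1r at 0.53 and -0.74 and Mrc1 at 0.28 and -0.33. Of the 9, 8 were above 0 in the first with a median of 0.301, and 1 in the second with a median of -0.343. The part of these cells in the members' values was not tested. Red blood cell markers were higher for 1 of 5 in Active against Inactive and 2 of 5 in Activity Reduction against Inactive, with Alas2 at 0.50 and 0.46 and Hba-a1 at 0.27 and 0.32. All 5 were above 0 in both, and 6.18% and 4.19% of all genes were higher at that threshold. The 8 muscle-defining markers summed to between 70550 and 82700 CPM. At an unadjusted p-value under 0.05, Mb was higher at 0.16 and Des lower at -0.10 in Active against Inactive, Acta1 was higher at 0.13 in Activity Reduction against Inactive, and Des was higher at 0.15 in Activity Reduction against Active. The 9 fast fibre markers summed to between 167700 and 209900 CPM, with 1 higher at that threshold in each comparison, in turn Myh4 at 0.19, Mylpf at 0.40 and Actn3 at 0.11. Mylpf itself was counted at only 1.732 to 3.662 CPM, whereas Myh1, the next lowest, was at 2983 CPM or more in every library.

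Of the other genes around the pathway 0 were called in any comparison. Of 40 other fatty acid handling genes 39 were tested, and 2 were higher and 1 lower at an unadjusted p-value under 0.05 in Active against Inactive, 2 and 2 in Activity Reduction against Inactive, and 2 and 4 in Activity Reduction against Active. In these comparisons 6.18% of all genes were higher and 4.69% lower, then 4.19% and 3.54%, and 6.89% and 6.44%. Acadsb, the dehydrogenase of short branched chains, ran from 157 to 177 CPM in the Inactive group, from 124 to 152 CPM in the Active group and from 126 to 158 CPM in the Activity Reduction group. All 7 Active mice were below every Inactive mouse, and 0.223% of all genes separated these groups without overlap. The log2 fold change of Acadsb was -0.19 ± 0.05 (SE) with an adjusted p-value of 0.225 (edgeR). Acaca, which makes malonyl-CoA, had a log2 fold change of -0.30 ± 0.12 (SE) in Activity Reduction against Active with an adjusted p-value of 0.285 (edgeR). Of 18 peroxisomal genes, 1 was lower in Active against Inactive, 1 was lower in Activity Reduction against Inactive, and 1 was higher and 1 lower in Activity Reduction against Active. They included the thioesterase Acot8, at -0.31 ± 0.08 (SE) in Active against Inactive with an adjusted p-value of 0.191, and Phyh, of the alpha-oxidation route, at -0.11 ± 0.04 (SE) in Activity Reduction against Active with an adjusted p-value of 0.222 (edgeR).

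Of 21 regulators of these genes, 2 were higher and 1 lower at an unadjusted p-value under 0.05 in Activity Reduction against Inactive, 3 higher and 2 lower in Activity Reduction against Active, and 0 in Active against Inactive. In these comparisons 4.19% of all genes were higher and 3.54% lower, then 6.89% and 6.44%, and 6.18% and 4.69%. Esrrg and Esrra encode related nuclear receptors that act on genes of oxidative metabolism, and their values had opposite signs. Esrrg ran from 21.3 to 34.5 CPM in the Inactive group with a median of 26.1 and from 16.2 to 21.6 CPM in the Activity Reduction group with a median of 19.6, with 6 of 7 Activity Reduction mice below every Inactive mouse. Its log2 fold change was -0.45 ± 0.09 (SE), with an unadjusted p-value of 7.4e-05 and an adjusted p-value of 0.134 (edgeR). Esrra ran from 87.1 to 104 CPM in the Inactive group and from 101 to 140 CPM in the Activity Reduction group, with a log2 fold change of 0.22 ± 0.06 (SE) and an adjusted p-value of 0.344 (edgeR).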

How the data were processed

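Per the labels, reads were trimmed with fastp, aligned to GRCm39 with STAR and counted on genes with featureCounts by the authors, and the deposited values are raw counts per gene in each of 21 libraries, 1 per mouse, without normalization. Totals ran from 38482455 to 59785132 counts per library, and counting error is small beside the spread between mice. The members and lists were chosen with earlier results of these data known.

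Counts were fitted over all genes in 1 edgeR 4.0.16 quasi-likelihood model of 3 groups (TMM, filterByExpr), with Benjamini-Hochberg adjustment over 16129 genes. The thresholds follow the study's methods, an adjusted p-value under 0.05 and a fold change over 0.25, which is read here as log2. The methods of the study give no scale for 0.25. Its figure legend gives the change as a percentage, which for an increase is a ratio of 1.2, or 0.263 in log2. No member reached the first threshold in any fit, so the second decided no call. DESeq2 1.42.0 was the alternative. Log2 CPM used a prior count of 2, and lengths came from the GENCODE canonical transcripts. Members at an unadjusted p-value under 0.05 and, in each role, the most abundant and the smallest p-value are described in full, with 2 genes of each other list. Other genes were picked out after their values were seen. Scripts were tested on simulated data. No 2 libraries of a group agreed within sampling noise.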

Additional observations from a re-analysis of the deposited data

Results flagged for a closer look

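In 5 of the 114 sets of 7 mice (38 genes in 3 groups), the highest or lowest mouse stood apart from the other 6 by Dixon's test, at its 95% critical value for 7 samples. Chance flags about 1 in 20 sets, so 5 is no excess. Acads was lowest in Active replicate 3, at 52.2 CPM where the other 6 mice had 59.5 to 63.4 (gap over range 0.673). Hadhb was lowest in the same mouse, at 226.5 CPM against 265 to 298 (0.572). Hadhb was highest in Inactive replicate 4, at 342 CPM against 274 to 300.1 (0.593), and Etfb was highest there too, at 167 CPM against 142.5 to 151 (0.633). Mlycd was lowest in Inactive replicate 7, at 10.3 CPM against 17.6 to 25.3 (0.597).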

How the results depend on the processing

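In every alternative that was run, 0 members were called in all 3 comparisons, and Acsl6, Lpl and Hadhb kept their direction. The sign of the members' median log2 fold change did not hold: it went from -0.029 to 0.073 for Active against Inactive in the libraries with fewer hepatocyte transcripts, from -0.031 to 0.058 for Activity Reduction against Inactive with the slow fibre covariate, and to -0.151 there in the 8 libraries with more hepatocyte transcripts, a setting added after the values were seen. The count of members at an unadjusted p-value under 0.05 moved in small numbers. For Active against Inactive it was 1, where 1754 of 16129 genes were at that threshold. It became 3 with DESeq2 on the 2 groups compared, where 2162 of 27684 genes were. With RLE size factors it became 2, where 1823 of 16129 genes were. In the libraries with fewer hepatocyte transcripts it became 0, where 1043 of 17175 genes were. For Activity Reduction against Inactive it was 2, and became 1 with the hepatocyte division as a covariate and 4 without the 3 libraries lowest in slow fibre markers, 2 of them higher. With the slow fibre covariate it stayed at 2, but with Pnpla2 and Crat, both higher, in place of Lpl and Hadhb. Over all genes the main fit gave 1247 of 16129. These settings in turn gave 1331 of 16129, 1350 of 16426 and 1153 of 16129. For Activity Reduction against Active it was 0, and became 1 with DESeq2 on the 3 groups, 3 with DESeq2 on the 2 groups, 1 with edgeR on the 2 groups, 1 with no filter, 1 with the hepatocyte covariate, 2 with the slow fibre covariate and 2 without the 3 libraries. Over all genes the main fit gave 2149 of 16129. These settings in turn gave 2371 of 28675, 2278 of 27620, 1920 of 15554, 3185 of 28675, 1730 of 16129, 2318 of 16129 and 1763 of 16426. For any difference it was 1, where 12.6% of all genes were in the main fit. It became 2 with upper-quartile scaling, no filter or the hepatocyte covariate and 3 with the slow fibre covariate. Leaving out each library gave 1 to 4, 0 to 4, 0 to 2 and 0 to 3 members. The largest counts came without Active replicate 4 (4), Activity Reduction replicate 1 (4), Active replicate 4 or 6 or Activity Reduction replicate 4 (2), and Activity Reduction replicate 5 (3). Where 4 members were found, all genes gave 1688 of 16283 and 1292 of 16265. The cause was not tested. Of the pairs, Pdk4 with Angptl4 became r = 0.886 (permutation test, adjusted p = 0.026) and Pdk4 with Acot2 r = 0.454 (0.28) in the 8 libraries with more hepatocyte transcripts. Etfa with Etfb was r = 0.462 (0.28) there, 0.541 (0.11) in the other 13, and 0.358 (0.18) without the 2 farthest libraries. Replicate numbers did not pair the mice: 7 of 21 correlations of same-numbered libraries were over 0.1 (range -0.222 to 0.471) and 3 of 21 libraries correlated best with their own number. The fit with the replicate number as a block gave 1, 2 and 0 members at an unadjusted p-value under 0.05 and 0 called. Over all genes it gave 2028, 1230 and 2348 of 16129 at the unadjusted threshold.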
